A study of Mus musculus with 7 samples.

Results

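Metallothionein and zinc response genes were followed in macrophages sorted from injured sciatic nerve. The set comprises 5 of the 23361 genes in the deposited table, taken by symbol: the metallothioneins Mt1, Mt2 and Mt3, the metal-sensing transcription factor Mtf1 and the zinc exporter Slc30a1. They were picked with values of these libraries known, so their levels and fold changes are given as a description, without a test. Macrophages of BALB/cJ mice were collected from the regenerative bridge inside an inert conduit after sciatic nerve transection and repair, at day 5 (3 libraries), day 14 (2 libraries) and day 28 (2 libraries). Cells were gated as Lin-F4/80+CD14+CD11b+CD16/32+, and polyA+ RNA was sequenced. Per the study's methods, cells positive for Ly6G (a granulocyte marker), Siglec F (eosinophils), Thy1.2 (used against fibroblasts) or markers of lymphocytes and red cells were excluded in the sort. All animals were wild-type and all were operated, and no uninjured nerve or other control was among these libraries. The replicates are described as independent biological ones. Whether a library came from 1 mouse or from a pool is not given in the sources used here, so the spread between libraries is the only error available.

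Metallothioneins are small cysteine-rich proteins that bind zinc and copper. Mt1 and Mt2 are made in most tissues and are induced by zinc, by glucocorticoids, by cytokines that act through Stat3 and by oxidative stress. Mt3 is best known from neurons and astrocytes, and Mt4 from stratified epithelium. Mtf1 senses free zinc in the cell and binds metal response elements in the promoters of Mt1, Mt2 and Slc30a1. Slc30a1 moves zinc out across the plasma membrane. In macrophages, zinc is withheld from or delivered to engulfed microbes, and metallothioneins and zinc transporters set how much of it is free.

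The metallothionein genes lie side by side on 1 strand of chromosome 8, in the order Mt4, Mt3, Mt2 and Mt1. In the GENCODE M21 annotation of GRCm38, all on the plus strand, Mt3 spans chr8:94152607-94154146, Mt2 spans chr8:94172664-94173568 and Mt1 spans chr8:94179082-94180327. The cluster from Mt4 to Mt1 covers 43131 bases, with 18517 bases between Mt3 and Mt2 and 5513 between Mt2 and Mt1. Mtf1 lies apart at chr4:124802104-124849800, and Slc30a1 at chr1:191906767-191913247. The main transcripts of Mt1, Mt2 and Mt3 have 3 exons each and are 549, 511 and 536 bases long.

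The bases upstream of Mt1, Mt2, Mt3 and Slc30a1 are shown because the genes differ in the matches they hold to the core of the metal response element. Sequences are from RefSeq (GRCm38.p6), plus strand, and each ends before the first annotated transcript start. Capitals mark the core, searched as TGCACNC and TGCGCNC on both strands.
Mt1, chr8:94178839-94179081: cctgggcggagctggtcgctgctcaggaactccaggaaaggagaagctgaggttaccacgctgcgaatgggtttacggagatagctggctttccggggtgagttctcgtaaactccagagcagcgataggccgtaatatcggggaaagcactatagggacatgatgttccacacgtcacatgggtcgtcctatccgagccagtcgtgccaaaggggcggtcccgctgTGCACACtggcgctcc
Mt2, chr8:94172368-94172617: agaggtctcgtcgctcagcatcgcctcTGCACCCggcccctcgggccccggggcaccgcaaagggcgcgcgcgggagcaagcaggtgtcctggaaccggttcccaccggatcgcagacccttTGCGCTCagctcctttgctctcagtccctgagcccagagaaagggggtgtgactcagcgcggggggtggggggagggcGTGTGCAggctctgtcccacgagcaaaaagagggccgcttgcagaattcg
Mt3, chr8:94152357-94152606: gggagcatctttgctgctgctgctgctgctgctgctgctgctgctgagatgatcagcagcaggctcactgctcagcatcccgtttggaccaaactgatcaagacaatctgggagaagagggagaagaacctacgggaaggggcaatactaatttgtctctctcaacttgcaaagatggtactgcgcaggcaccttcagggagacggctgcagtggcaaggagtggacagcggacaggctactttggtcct
Slc30a1, chr1:191906531-191906766: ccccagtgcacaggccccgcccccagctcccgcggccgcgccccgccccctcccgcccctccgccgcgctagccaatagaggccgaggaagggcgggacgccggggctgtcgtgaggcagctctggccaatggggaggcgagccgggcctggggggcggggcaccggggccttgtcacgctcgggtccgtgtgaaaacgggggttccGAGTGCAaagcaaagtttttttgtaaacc

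In windows that reach from 250 bases before to 50 bases after the RefSeq start, Mt2 held 4 cores, Mt1 held 3, Slc30a1 held 2, Mt3 held 1 and Mtf1 held 0. All 5 members had such a window. Of the 32851 windows of this length in the RefSeq table, 25.7% held at least 1 core, 7.11% at least 2, 1.97% at least 3 and 0.517% at least 4. The single Mt3 core began at base 28 of the transcript, so the stretch printed above shows none. Of the Mt1 cores, 1 began 23 bases before the start and the other two at bases 3 and 21 of the transcript, counted from the start at 94179089 in RefSeq, where GENCODE starts the gene at 94179082. For Mt2 the annotations differ more: GENCODE starts the gene at 94172664 and RefSeq at 94172618. The core of the antioxidant response element, searched as TGACNNNGC on both strands, occurred once in the windows of Mt2 and Slc30a1 and in 12.4% of all windows. A match is a run of letters and was not tested as a binding site.

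**Figure D1:**
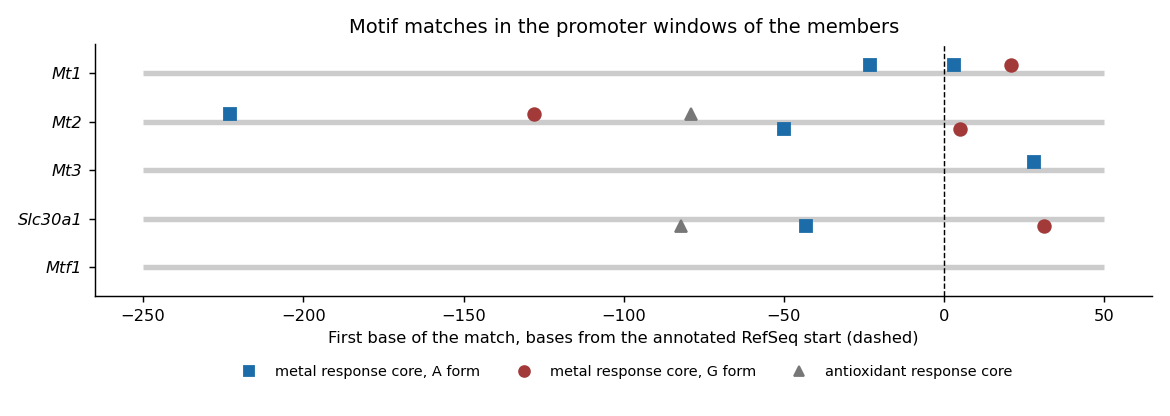
Matches to the metal response core (A form TGCACNC, squares; G form TGCGCNC, circles) and to the antioxidant response core (triangles) in the promoter windows of the members, by distance in bases from the RefSeq start. Symbols above a line are on the gene's strand and symbols below on the other; Mt2 holds 4 metal response cores and Mtf1 holds 0.

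Libraries held 18027190 to 35247116 fragments. All 8 macrophage markers were detected in every library, with a summed level of 5741 to 6205 FPKM at day 5, 4113 to 4807 at day 14 and 3901 to 4341 at day 28. FPKM are fragment counts scaled to transcript length and library size. The macrophage markers did not move together. Cd14, which weighed most in the sum, had means of 2766, 1634 and 1616 FPKM in time order. Emr1, Itgam and Cd68 also had lower means at both later time points, and Fcgr2b only at the last. Csf1r (417.3, 473.7 and 446.8 FPKM) and Fcgr3 (239.8, 266 and 258.9 FPKM) had higher means at both. The means of Mertk stayed between 23.1 and 25.6 FPKM. Fibroblast markers summed to 221.9 FPKM in day 14 replicate 1, against 27.8 to 80.2 in the other libraries. Of the 7 Schwann cell markers, Pmp22 and Mbp made up nearly all of the sum of 153.3 to 294.2 FPKM, and the Schwann cell transcription factor gene Sox10 had 0 to 4 fragments. In bulk RNA, fewer cells of a type and less RNA per cell cannot be told apart. Over all genes tested with edgeR's quasi-likelihood test and Benjamini-Hochberg adjustment, 4.78% were called at an adjusted p under 0.05 at day 14 against day 5, 0.0622% at day 28 against day 14 and 15.2% at day 28 against day 5.

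Mt1 was the most abundant member in all 7 libraries. Its level was 506.8, 411.7 and 399.9 FPKM at day 5, 486.6 and 316 FPKM at day 14, and 292.7 and 294.9 FPKM at day 28. Of the day 14 libraries, 1 lay within the day 5 range and the other below it, while both day 28 libraries lay below the other 5. Means were 439.5 ± 58.6 (SD, n = 3), 401.3 ± 121 (SD, n = 2) and 293.8 ± 1.55 (SD, n = 2) FPKM. On the log2 scale of the fitted counts, Mt1 differed by -0.57 (SE 0.18) between day 28 and day 5 and by -0.44 (SE 0.20) between day 28 and day 14. Between day 14 and day 5 the difference was -0.12 (SE 0.18), within its error. That difference was -0.46 without day 14 replicate 1 and 0.15 without day 14 replicate 2, so the 2 day 14 libraries decided its sign. Without day 14 replicate 1 the difference of day 28 from day 14 was -0.11, and without day 14 replicate 2 it was -0.72.

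Mt2 was the second most abundant member in every library and spread more than Mt1. It stood at 169.4, 125.6 and 96.7 FPKM at day 5, at 158.1 and 71 FPKM at day 14, and at 96 and 102.8 FPKM at day 28. The time points overlapped throughout, and the highest and the lowest values both came from libraries taken by day 14. Means were 130.6 ± 36.6 (SD, n = 3), 114.6 ± 61.6 (SD, n = 2) and 99.4 ± 4.78 (SD, n = 2) FPKM. The fitted log2 differences were -0.38 (SE 0.31) for day 28 against day 5, -0.19 (SE 0.31) for day 14 against day 5 and -0.20 (SE 0.34) for day 28 against day 14. The last of these turned to 0.48 without day 14 replicate 1 and was -0.66 without day 14 replicate 2. The difference of day 14 from day 5 turned to 0.28 without day 14 replicate 2 and to 0.05 without day 5 replicate 1, and it was -0.86 without day 14 replicate 1. An antisense gene, Gm45774, covers part of Mt2: of the 75-base stretches of the Mt2 transcript, 32.3% also occur in Gm45774, which the table does not list. Whether strand was used in counting is not given in the sources used here, so reads of the pair cannot be told apart. No annotated gene overlaps Mt1 or Mt3.

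Mt3 was near 0 at day 5 and was detected at days 14 and 28. The fragments assigned to it numbered 2, 2 and 1 at day 5, 17 and 114 at day 14, and 299 and 74 at day 28. These correspond to 0.244, 0.288 and 0.135 FPKM at day 5, to 2.79 and 15.1 FPKM at day 14, and to 23 and 11.4 FPKM at day 28. Every day 14 and day 28 library lay above every day 5 library, and day 14 replicate 1 lay below the other 3 later libraries. Means were 0.222 ± 0.0786 (SD, n = 3), 8.93 ± 8.69 (SD, n = 2) and 17.2 ± 8.17 (SD, n = 2) FPKM. Mt3 passed the filter on low counts only through its day 14 and day 28 libraries.

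Because the day 5 libraries held 1 or 2 Mt3 fragments each, its change is given as a ratio of summed fragments scaled to library size, with an exact 95% interval that covers counting error only. The ratio of day 14 to day 5 was 43.5 (18.2 to 136.2). It was 12.6 (4.46 to 43.6) without day 14 replicate 2 and 68.6 (28.6 to 215.4) without day 14 replicate 1, so its size rested on which of the 2 libraries was used. The ratio of day 28 to day 5 was 87 (37 to 269.6), and 51.7 (21.2 to 164) without day 28 replicate 1. From day 14 to day 28 the ratio was 2 (1.64 to 2.46), a step within the spread of the libraries, whose values overlapped. It was 1.19 (0.882 to 1.59) without day 28 replicate 1, 1.27 (1.03 to 1.58) without day 14 replicate 1 and 6.92 (4.26 to 12) without day 14 replicate 2. Since Mt3 is best known from neurons and astrocytes, markers of those cells were read beside it. Their summed level was 0.742 to 0.831 FPKM at day 5, 1.03 to 1.12 at day 14 and 0.844 to 1.06 at day 28. The defining markers Snap25, Rbfox3, Nefl, Gfap and Aqp4 had 0 to 4 fragments in each library. The remaining 2 went in opposite directions: the astrocyte marker Aldh1l1 stood at 0.242 to 0.371 FPKM at day 5 and at 0.558 to 0.996 at the later days. The neuronal tubulin gene Tubb3 stood at 0.351 to 0.485 FPKM at day 5, 0.0363 and 0.38 at day 14, and 0.102 and 0.273 at day 28, with at most 18 fragments in a library. The part of such cells in the Mt3 level, and that of the macrophages themselves, was not tested.

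**Figure D2:**
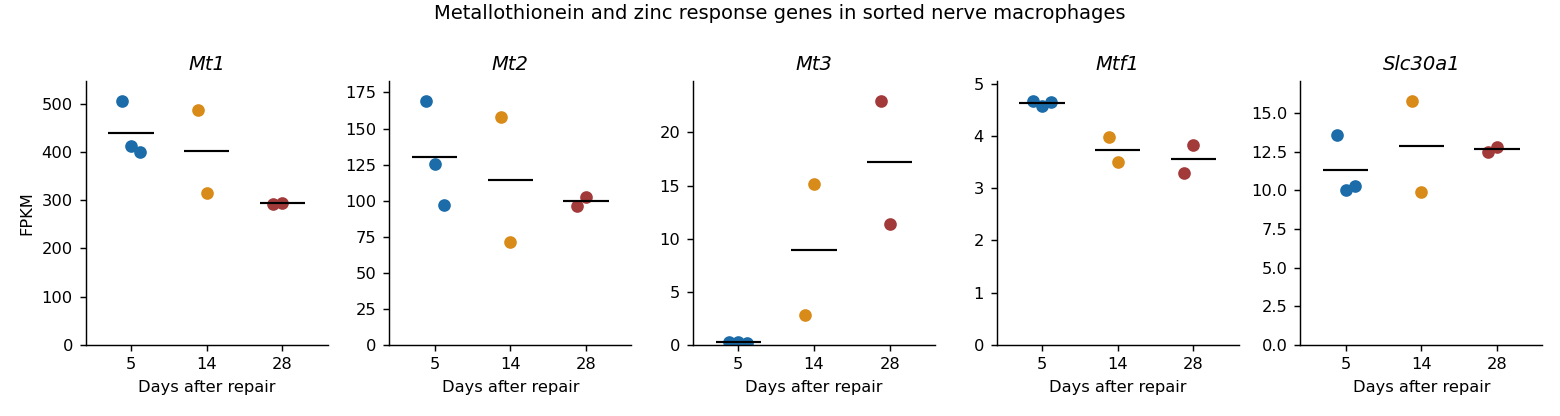
FPKM of the 5 members in each library against days after repair; each point is 1 library and each line a time point mean, and each panel has its own linear axis from 0. Mt3 lies between 0.135 and 0.288 FPKM in the 3 day 5 libraries and between 2.79 and 23 FPKM in the 4 later ones, and Mt1 runs from 292.7 to 506.8 FPKM.

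Mtf1, the zinc sensor that drives Mt1, Mt2 and Slc30a1, was the least variable member at day 5. Its level was 4.68, 4.58 and 4.66 FPKM at day 5, 3.98 and 3.5 FPKM at day 14, and 3.3 and 3.82 FPKM at day 28. All 4 later libraries lay below the 3 day 5 libraries, and days 14 and 28 overlapped. Means were 4.64 ± 0.0569 (SD, n = 3), 3.74 ± 0.337 (SD, n = 2) and 3.56 ± 0.37 (SD, n = 2) FPKM. The fitted log2 difference was -0.30 (SE 0.12) at day 14 and -0.37 (SE 0.12) at day 28, both against day 5. Between day 28 and day 14 it was -0.07 (SE 0.13), and it was 0.02 without day 14 replicate 1 and 0.03 without day 28 replicate 1. The opposite-strand gene 1110065P20Rik, at 11.4 to 15.5 FPKM, shares 8.56% of the 75-base stretches of the Mtf1 transcript.

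Slc30a1, the plasma membrane zinc exporter, showed no difference beyond the spread between libraries. It stood at 13.6, 10 and 10.3 FPKM at day 5, at 15.8 and 9.91 FPKM at day 14, and at 12.5 and 12.8 FPKM at day 28. Day 14 held both its highest and its lowest library. Means were 11.3 ± 1.99 (SD, n = 3), 12.9 ± 4.16 (SD, n = 2) and 12.7 ± 0.175 (SD, n = 2) FPKM. The fitted log2 differences were 0.19 (SE 0.20), -0.02 (SE 0.22) and 0.17 (SE 0.20) for day 14 against day 5, day 28 against day 14 and day 28 against day 5. Without day 14 replicate 1 the first became -0.18 and the second 0.35, and without day 14 replicate 2 they were 0.48 and -0.31. Day 14 replicate 1, where Slc30a1 was highest, also held the most fibroblast marker RNA, although the sort used Thy1.2 to exclude fibroblasts, and the part of such cells in its level was not tested. The antisense gene 1700034H15Rik, at 0.15 to 0.336 FPKM, shares 7.64% of the 75-base stretches of Slc30a1.

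Read as counts, 1 of the 5 members (Mt3) was called at day 14 against day 5, where 4.78% of all genes tested were called. The count was 0 at day 28 against day 14, against a background of 0.0622%. It was again 1 (Mt3) at day 28 against day 5, against 15.2%. Members whose FPKM did not overlap were 2 at day 14 against day 5 (Mt3 higher, Mtf1 lower), 1 at day 28 against day 14 (Mt1 lower) and 3 at day 28 against day 5 (Mt3 higher, Mt1 and Mtf1 lower). Over all genes tested, 43.2% did not overlap at day 14 against day 5 (21.9% higher, 21.4% lower), 39% at day 28 against day 14 (19.7% lower) and 51.5% at day 28 against day 5 (26% higher, 25.6% lower). The members were chosen from these contrasts, and Mt3 passed the filter on low counts only through the libraries where it is high, so these counts are no test of the members and nothing is read from them.

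The proportion of Mt1 to Mt2 varied between libraries, with no difference between time points beyond that spread. The ratio of Mt1 to Mt2 FPKM was 2.99, 3.28 and 4.14 at day 5, 3.08 and 4.45 at day 14, and 3.05 and 2.87 at day 28, and the time points overlapped. Over the 7 libraries, the log2 library-scaled counts (CPM) of Mt1 and Mt2 had a Pearson r of 0.83. Mt3 was a small part of this pool. It made up 0.0273 to 0.0536% of the summed FPKM of Mt1, Mt2 and Mt3 at day 5, 0.43% and 3.75% at day 14, and 5.58% and 2.79% at day 28. In day 14 replicate 2 and in both day 28 libraries Mt3 stood 2.98 to 6.96 times as high as Mtf1 in FPKM.

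**Figure D3:**
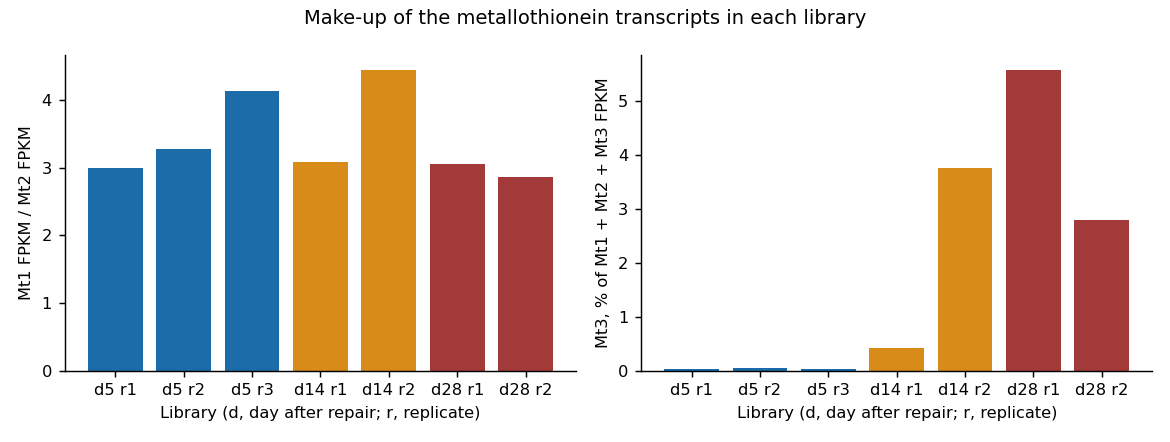
Left, Mt1 FPKM divided by Mt2 FPKM; right, Mt3 as a percentage of the summed Mt1, Mt2 and Mt3 FPKM; each bar is 1 library, labelled by day (d) and replicate (r). The Mt1 to Mt2 ratio stays between 2.87 and 4.45, and the Mt3 share goes from at most 0.0536% at day 5 to 5.58% in day 28 replicate 1.

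The other members paired less closely or in the opposite sense. Over the same 7 libraries Mt3 and Mtf1 had an r of -0.98, Mt1 and Mt3 of -0.78, and Mt2 and Slc30a1 of 0.68. These values describe 7 libraries in 3 time points, which share the time course itself. The genes most like Mt3 in log2 CPM were Ncs1, a neuronal calcium sensor gene (r = 0.998), Il11ra1, a receptor chain for interleukin 11 (r = 0.997), and Cnr2, the cannabinoid receptor of immune cells (r = 0.995). Ncs1 stood at 1.15, 1.23 and 1.18 FPKM at day 5, 2.38 and 4.18 FPKM at day 14, and 4.98 and 3.6 FPKM at day 28. These 3 genes were picked for likeness to Mt3 over the same libraries, so sharing its intermediate level in day 14 replicate 1 follows from the choice. Il11ra1 was 10.8 FPKM there, against 5.67 to 6.76 at day 5 and 18.2 to 22.2 in the other 3 later libraries. Most like Mt1 were the proteasome subunit gene Psmd8 (r = 0.991), Nhlrc2 (r = 0.989) and Il4ra, the receptor chain for interleukin 4 (r = 0.987). Most like Mt2 were the kinase gene Sik3 (r = 0.986), Sqstm1, which encodes the autophagy receptor p62 (r = 0.979), and the kinase gene Stk39 (r = 0.972). In day 14 replicate 1, Mt1 lay within its day 5 range. Il4ra was 88.1 FPKM there, 63.7 to 84.2 FPKM at day 5 and 34.7 to 41.5 FPKM in the other 3 later libraries. Because Il4ra was picked for its likeness to Mt1 over these libraries, this shared pattern follows from the choice.

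The rest of the metallothionein locus gave little signal. Mt4 had 0 fragments in 6 libraries and 2 fragments in day 28 replicate 1, below what the filter kept, and it was not tested. Of the 8 annotated genes within 100 kb of the cluster, 3 were in the table and tested: Ogfod1, Bbs2 and Nup93. At day 28 against day 5, 1 of the 3 was called, where 15.2% of all genes tested were called. That gene was Ogfod1, which encodes a hydroxylase of the ribosomal protein Rps23. It rose from 2.49 ± 0.0862 (SD, n = 3) to 3.7 ± 0.0963 (SD, n = 2) FPKM (log2 0.58, SE 0.15, edgeR adjusted p = 0.033). Bbs2 and Nup93 differed by -0.10 (SE 0.28) and 0.11 (SE 0.12) on the same scale.

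The zinc transporters other than Slc30a1 were read as a group of 23 genes, of which 18 passed the filter. Exporters (Slc30 genes) move zinc out of the cytosol, and importers (Slc39 genes) move it in. In edgeR, 4 of the 18 were called at day 28 against day 5, 3 higher and 1 lower, where 15.2% of all genes were called (7.74% higher, 7.51% lower). Their median log2 difference was -0.05, beside 0.033 over all genes tested. At day 14 against day 5, 0 were called, with 3 at an unadjusted p under 0.05, and DESeq2 called 1 of 22. At day 28 against day 14, edgeR called 0 of 18 and DESeq2, which tested more of the low genes, 0 of 22, with 1 at an unadjusted p under 0.05 in edgeR. Over all genes tested, 24% and 12.2% had an unadjusted p under 0.05 in these comparisons.

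Slc39a10, an importer that Mtf1 is known to repress, rose from 4.96, 6.52 and 5.11 FPKM at day 5, through 6.2 and 7.41 FPKM at day 14, to 7.8 and 9.23 FPKM at day 28 (log2 0.64, SE 0.16, edgeR adjusted p = 0.0264 for day 28 against day 5). Slc30a4, an exporter into vesicles, rose from 0.443, 0.46 and 0.372 FPKM at day 5 to 0.848 and 0.798 FPKM at day 28 (log2 0.97, SE 0.27, edgeR adjusted p = 0.0396). Slc39a11 rose from 13.7 ± 1.01 (SD, n = 3) to 18.9 ± 2.21 (SD, n = 2) FPKM (log2 0.48, SE 0.13, edgeR adjusted p = 0.038). Slc39a1, a plasma membrane importer and the most abundant transporter of the group, fell from 133.3 ± 13.4 (SD, n = 3) to 93.1 ± 2.79 (SD, n = 2) FPKM (log2 -0.50, SE 0.13, edgeR adjusted p = 0.0352). In all 4 the day 28 libraries lay outside the range of the day 5 libraries, as in 51.5% of all genes tested. Since the 4 were picked by their calls in this comparison, nothing further is read from that. The next most abundant were Slc39a7, which releases zinc from the endoplasmic reticulum, at 41.4 to 53.2 FPKM, and the cytokine-induced importer Slc39a14, at 14.9 to 37.3 FPKM. They differed by 0.14 (SE 0.11) and -0.68 (SE 0.28) on the log2 scale between day 28 and day 5. Over the 7 fits without 1 library, log2 differences ran from 0.88 to 1.02 for Slc30a4 and from 0.51 to 0.77 for Slc39a10. They ran from 0.35 to 0.58 for Slc39a11 and from -0.57 to -0.43 for Slc39a1. Calls over all genes tested fell from 1960 to 820, 916 and 967 without day 5 replicates 1, 2 and 3. The count of 4 also changed in such fits. It was 0 without day 5 replicate 1, day 5 replicate 3, day 28 replicate 1 or day 28 replicate 2, and 1 (Slc39a10) without day 5 replicate 2. Without day 14 replicate 1, 3 transporters (Slc30a7, Slc39a1 and Slc39a14) were called lower at day 14 against day 5. Of the 19 transporters with a promoter window, 10 held a metal response core, beside 25.7% of all windows. Those windows were not matched to the transporters for base content, and the difference was not tested. Slc30a4 and Slc30a10 held 3, where 1.97% of all windows held at least 3, and Slc30a10 had 0 fragments in every library. Of the other called transporters, Slc39a11 held 1 core, and Slc39a1 and Slc39a10 held 0.

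**Figure D4:**
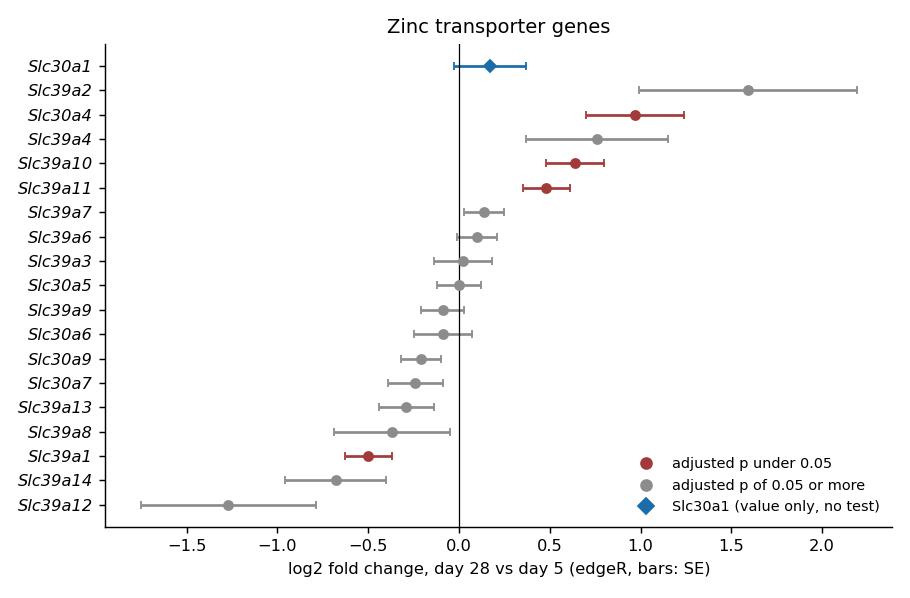
Log2 fold change of the 18 tested zinc transporters and of Slc30a1 at day 28 against day 5, from the edgeR fit, with bars for 1 standard error. The 4 transporters in red had an adjusted p under 0.05: Slc30a4, Slc39a10 and Slc39a11 to the right of 0 and Slc39a1 to the left.

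Other genes described as targets of Mtf1 moved in both directions. Of 9 tested, 3 were called higher and 1 lower at day 28 against day 5, where 7.74% of all genes were called higher and 7.51% lower. Their median log2 difference was -0.22, beside 0.033 over all genes tested. Gclc, the catalytic subunit of glutathione synthesis, rose by 0.73 (SE 0.16, edgeR adjusted p = 0.0198) from 18.4 ± 3.92 (SD, n = 3) FPKM at day 5. Cebpa, a myeloid transcription factor, rose by 0.58 (SE 0.16, edgeR adjusted p = 0.0426) from 94.7 ± 1.15 (SD, n = 3) FPKM. Sepw1, which encodes selenoprotein W, fell by 0.74 (SE 0.15, edgeR adjusted p = 0.0125) from 269.9 ± 17.7 (SD, n = 3) FPKM. The remaining call was Slc39a10. At days 14 against 5 and 28 against 14, edgeR called 0 of the 9, with 3 at an unadjusted p under 0.05 in each, and DESeq2 called 3 and 1. The count at day 28 against day 5 fell to 0 without day 5 replicate 1, fell to 1 without day 5 replicate 3, day 28 replicate 1 or day 28 replicate 2 and rose to 6 without day 14 replicate 1 or day 14 replicate 2. Without day 14 replicate 1, 3 of the 9 were called at day 14 against day 5 (Ndrg1, Cebpa and Pgf).

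Copper handling genes were examined because metallothioneins also bind copper. Of 9 tested, 2 were called, both lower at day 28 against day 5, where 7.51% of all genes were called lower. The median of the 9 was -0.20. Slc31a1, the plasma membrane copper importer, fell by 0.78 (SE 0.16, edgeR adjusted p = 0.0142) from 33.6 ± 3.66 (SD, n = 3) to 19.5 ± 2.26 (SD, n = 2) FPKM. The related Slc31a2 fell by 1.11 (SE 0.24, edgeR adjusted p = 0.0183) from 67.8 ± 17 (SD, n = 3) to 31.2 ± 0.881 (SD, n = 2) FPKM. Both calls were lost without day 5 replicate 1, day 28 replicate 1 or day 28 replicate 2, with adjusted p of up to 0.0852 for Slc31a1 and 0.118 for Slc31a2. In the other comparisons edgeR called 0 of the 9, with 3 at an unadjusted p under 0.05 at day 14 against day 5 and 0 at day 28 against day 14, and DESeq2 called 2 and 0 of the 10 it tested. Without day 14 replicate 1, edgeR also called Slc31a1 and Slc31a2 lower at day 14 against day 5.

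Signals listed as inducers of metallothioneins were read from their targets, receptors and transducers, without assigning each signal to 1 metallothionein. Of 10 glucocorticoid-induced genes, 2 were called higher and 2 lower at day 28 against day 5 (7.74% and 7.51% of all genes), and 1 higher and 2 lower at day 14 against day 5, where 2.84% of all genes were called higher and 1.94% lower. Sgk1, a serum and glucocorticoid regulated kinase, stood at 129.2, 125.9 and 95.2 FPKM at day 5, 205.5 and 356.9 FPKM at day 14, and 441.5 and 341.4 FPKM at day 28. It rose by 1.28 (SE 0.23, edgeR adjusted p = 0.0231) to day 14 and by 1.76 (SE 0.24, edgeR adjusted p = 0.0026) to day 28, both from day 5 on the log2 scale. Klf9, a transcription factor, rose by 1.31 (SE 0.14, edgeR adjusted p = 0.00101) from 4.45 ± 0.351 (SD, n = 3) at day 5 to 10.9 ± 1.34 (SD, n = 2) FPKM at day 28. Ddit4, an inhibitor of mTORC1, fell by 1.11 (SE 0.19, edgeR adjusted p = 0.0209) to day 14 and by 0.75 (SE 0.19, edgeR adjusted p = 0.0292) to day 28. Errfi1, a feedback inhibitor of the EGF receptor, fell by 1.23 (SE 0.29, edgeR adjusted p = 0.0465) to day 14 and by 1.41 (SE 0.29, edgeR adjusted p = 0.0147) to day 28. In the remaining comparison, day 28 against day 14, edgeR called 0 of the 10, with 3 at an unadjusted p under 0.05, and DESeq2 called 2.

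Of 14 receptors and transducers of inducing signals, 1 was called higher and 3 lower at day 28 against day 5, beside 7.74% and 7.51% of all genes, and their median log2 difference was -0.23. Stat3, which carries the signal of interleukin 6 family cytokines, fell by 0.84 (SE 0.17, edgeR adjusted p = 0.0114) from 104.1 ± 6.71 (SD, n = 3) to 57.5 ± 3.8 (SD, n = 2) FPKM. Il4ra fell by 1.05 (SE 0.27, edgeR adjusted p = 0.0314) from 73.2 ± 10.3 (SD, n = 3) to 35.1 ± 0.554 (SD, n = 2) FPKM. Tnfrsf1a, a receptor for tumor necrosis factor, fell by 0.45 (SE 0.11, edgeR adjusted p = 0.0248), and Csf2ra, a receptor chain for GM-CSF, rose by 0.71 (SE 0.18, edgeR adjusted p = 0.0286). In the other comparisons edgeR called 0 of the 14, with 3 at an unadjusted p under 0.05 at day 14 against day 5 and 2 at day 28 against day 14, and DESeq2 called 2 and 1. The count of 4 fell to 1 (Stat3) without any 1 of the day 5 libraries. Without either day 28 library, which leaves 1 library at that day, each of these genes lost its call. Over the 7 fits without 1 library, log2 differences ran from -0.91 to -0.78 for Stat3 and from -1.13 to -0.93 for Il4ra. They ran from -0.50 to -0.41 for Tnfrsf1a and from 0.49 to 0.90 for Csf2ra. Without day 14 replicate 1, 7 of the 14 were called at day 14 against day 5, 1 higher and 6 lower. Of all 17 listed genes called at day 28 against day 5, Klf9 and Sgk1 were called in each of the 7 fits without 1 library, and the other 15 lost the call in at least 1 of them. The highest adjusted p in those fits was 0.0131 for Klf9, 0.0377 for Sgk1, 0.0976 for Stat3 (without a day 28 library) and 0.172 for Il4ra. At day 14 against day 5, the calls of Sgk1, Ddit4 and Errfi1 were each lost without any 1 of the day 5 libraries, and that of Errfi1 also without either day 28 library.

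S100a8 and S100a9 encode the zinc-binding subunits of calprotectin, which withholds zinc outside the cell. S100a9 stood at 137.6, 161 and 158.6 FPKM at day 5, 333.7 and 294.9 FPKM at day 14, and 136.6 and 61.4 FPKM at day 28. S100a8 followed the same order, at 101.4 to 116.3, 160.8 to 218.3 and 41.6 to 114.9 FPKM. Both day 14 libraries lay above all others for each gene. Neither passed the threshold: for S100a9 the log2 difference was 1.05 (SE 0.26, edgeR adjusted p = 0.0515) at day 14 against day 5 and -1.65 (SE 0.29, edgeR adjusted p = 0.0774) at day 28 against day 14. The sort excluded Ly6G+ and Siglec F+ cells. The 6 granulocyte markers in the table summed to 1.44 to 1.76 FPKM at day 5, 2.97 to 4.61 at day 14 and 1.62 to 2.02 at day 28, but they did not move together. Ccr3, which made up most of the sum in day 14 replicate 1, was 3.42 FPKM there and 0.957 FPKM in day 14 replicate 2, against 1.05 to 1.62 at day 5. Ngp had 27 fragments in day 14 replicate 2 and 0 in every other library, and Epx had 0 to 1. The part of granulocytes in the S100a8 and S100a9 levels was not tested.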

How the data were processed

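Macrophage RNA was sequenced in 7 libraries from 3 time points, grouped by the time point label. Per the labels, the authors trimmed reads with cutadapt 1.8, mapped them to mm10 with TopHat2 2.0.13 and quantified genes with Cuffdiff 2.2.1. The deposited table gives, for each gene and library, estimated counts of fragments, a signal of fragments scaled between libraries by Cuffdiff, and FPKM. Multi-mapped or overlapping reads can be split between genes in these values. Estimated counts were rounded and fitted with edgeR 4.0.16 (quasi-likelihood test, TMM scaling, filterByExpr by time point, all 7 libraries, time point as the only factor), with Benjamini-Hochberg adjustment over 12858 genes and a threshold of 0.05 in 3 pairwise comparisons. Standard errors are the fold change divided by the root of F. The fit was tested on simulated counts. Levels are FPKM, which depend on transcript length. Correlations used log2 CPM with a prior count of 2. Alternatives were DESeq2 1.42.0, RLE size factors, the Cuffdiff scaling, no filter, limma 3.58.1 on log2(FPKM + 1) and log2(FPKM + 0.1), a fit of 2 time points only, a replicate block and each library left out.

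The members and the gene lists were chosen with earlier results of these data known. Named genes are the members, listed genes past the threshold, Mt4, Slc30a4, Slc39a10, S100a8, S100a9, the 3 most abundant zinc transporters and the 3 genes most correlated with Mt1, Mt2 and Mt3 each. Gene positions came from GENCODE M21 and promoter windows from RefSeq, both GRCm38. The granulocyte marker Ly6g was not analysed here. Marker sums of lymphocytes (0.183 to 0.757 FPKM), mast cells (0.197 to 0.874), endothelial cells (6.1 to 29.3) and dendritic cells (3.21 to 29.3, mostly Ccl22) were low beside those of macrophages.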

Additional observations from a re-analysis of the deposited data

How the results depend on the processing

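Counts of called genes depended on the method. At day 14 against day 5, 614 genes were called, and 1308 with DESeq2, 1429 with no filter, 252 and 277 with limma on log2(FPKM + 1) and log2(FPKM + 0.1), 315 with the 2 time points alone and 52 to 1728 without 1 library. At day 28 against day 14, 8 were called, and 336, 390, 0, 0 and 0 under the same alternatives, and 0 to 629 without 1 library (629 without day 14 replicate 2). At day 28 against day 5, 1960 were called, and 452 to 2746 without 1 library. For zinc transporters, the 0 at day 14 against day 5 became 1 with DESeq2 and with no filter and ranged from 0 to 3 without 1 library. The 4 at day 28 against day 5 became 2 and 1 with the limma fits and ranged from 0 to 5 without 1 library. The cause was not tested. A group left with 1 library was assumed to vary like the others.

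Deviations from the time point means showed little correlation between same-numbered libraries. The values were 0.175 and 0.045 for days 5 and 14, -0.054 for days 14 and 28, and 0.084 and 0.025 for days 5 and 28. Where a day has 2 libraries, their deviations mirror each other. These values therefore cannot settle whether the replicate numbers pair the samples. A fit blocked on the replicate number called 6, 0 and 735 genes in the 3 comparisons and 0 zinc transporters at day 28 against day 5. Fold changes of the members are a description, and no member's calls are counted as support. With 2 or 3 libraries a time point, and 1 or 2 fragments of Mt3 at day 5, sizes of change are coarse.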
